A study of Homo sapiens with 2 samples.

Results

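Of the 12007 gene symbols listed for ACHN cells, 52 name a translation initiation factor or a close partner, and all 52 are described here. They are every gene whose symbol opens with EIF and a digit and holds no hyphen, which takes in the initiation factors, the eIF4E binding proteins and the 4 kinases of eIF2α. ACHN is a line of human renal cell carcinoma. The study compared ACHN cells that carried a lentiviral short hairpin RNA against KIAA1429 (shKIAA1429) with ACHN cells that carried a control hairpin (shNC), both kept as stable lines under puromycin. KIAA1429, listed under its symbol VIRMA, is the scaffold of the complex that writes N6-methyladenosine on mRNA. The labels call the first line a knockout, whereas the study's methods describe a knockdown, and the sources used here do not say which of the study's hairpins was sequenced.

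One poly(A) RNA library was sequenced for each line, so no difference below has a replicate check and no test was possible. Values are FPKM, fragments scaled to transcript length and to the mapped fragments of the library, which allow levels of different genes to be compared within a library. A change is log2 of (FPKM + 1) in shKIAA1429 over (FPKM + 1) in shNC, among the 10702 symbols with a mean of at least 1 FPKM over both libraries. All 52 initiation factor genes passed that minimum. The median change of the 10702 genes was 0.06, and changes are read against it: rescaling both libraries to an equal sum took this median to 0.24 and moved every initiation factor gene other than EIF5 and EIF4B up by 0.12 to 0.26, so a change near 0 has no settled sign. Rescaling without the mitochondrial genes left that median at 0.07 and the median of the 52 genes at 0.02. The read depth is unknown, since the tables hold no counts.

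In initiation, the small ribosomal subunit first takes up initiator tRNA, carried by eIF2 bound to GTP, together with eIF1, eIF1A, eIF3 and eIF5. The eIF4F complex binds the mRNA cap and, with eIF4B and eIF4H, opens the leader so that this subunit can scan to the start codon. There eIF5 makes eIF2 hydrolyse its GTP, eIF5B joins the large subunit, and eIF2B recharges eIF2 for another round. Phosphorylated eIF2α blocks eIF2B and the 4E-BPs hold back eIF4E, which makes initiation a main point of control of protein synthesis.

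The library labelled KIAA1429 knockout held 3.22 FPKM of VIRMA against 3.92 FPKM in shNC, a change of −0.22. The mRNA was thus at 82.1% of the control. For ACHN cells the study reported a significant loss of KIAA1429 mRNA by RT-qPCR and of its protein by western blot. Protein was not measured in these libraries. MYC, the target the study pursued, was listed at 28.5 FPKM in shNC and 4.53 FPKM in shKIAA1429. The renal factors PAX8 and PAX2, the epithelial genes KRT8, KRT18 and EPCAM, and VIM and CDH2, which mesenchymal cells also express, were present in both libraries, between 19.3 and 368 FPKM. PAX8 was at 64.7 and 104 FPKM, EPCAM at 32.8 and 23.1 FPKM, VIM at 368 and 228 FPKM and CDH2 at 29.4 and 19.3 FPKM, and their part in the results below was not tested. Of the markers of other cell types, PTPRC, PECAM1 and DCN were not listed and COL1A1 was at 1.08 and 1.62 FPKM. Genes of the mitochondrial genome held 42.2% of all FPKM in shNC and 34.6% in shKIAA1429.

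EIF5 and EIF4B stood apart from the other initiation factors, in opposite directions. EIF5 was listed at 5.39 FPKM in shNC and 18.9 FPKM in shKIAA1429, a change of 1.64. EIF4B was listed at 269 FPKM in shNC and 113 FPKM in shKIAA1429, a change of −1.24. The other 50 genes lay between −0.42 and 0.56, as the plot of levels by role shows. The study's methods pair a limit of 1.5 with a P value from DESeq2. Here that limit alone was set on the change in FPKM + 1. By it, 1 initiation factor gene was higher, beside 0.383% of all genes, and 0 were lower, beside 0.252%. By a limit of 1, 1 was higher, beside 1.61% of all genes, and 1 was lower, beside 0.897%. By a limit of 0.5, the 3 genes EIF5, EIF4G3 and EIF1AD were higher, beside 9.9% of all genes, and EIF4B alone was lower, beside 6.12%. The remaining 48 genes (92.3%) had a change of 0.5 or less in either direction, as did 84.0% of all genes. With the trend in GC content and transcript length removed, EIF5 came to 1.49, just inside the limit of 1.5.

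**Figure D1:**
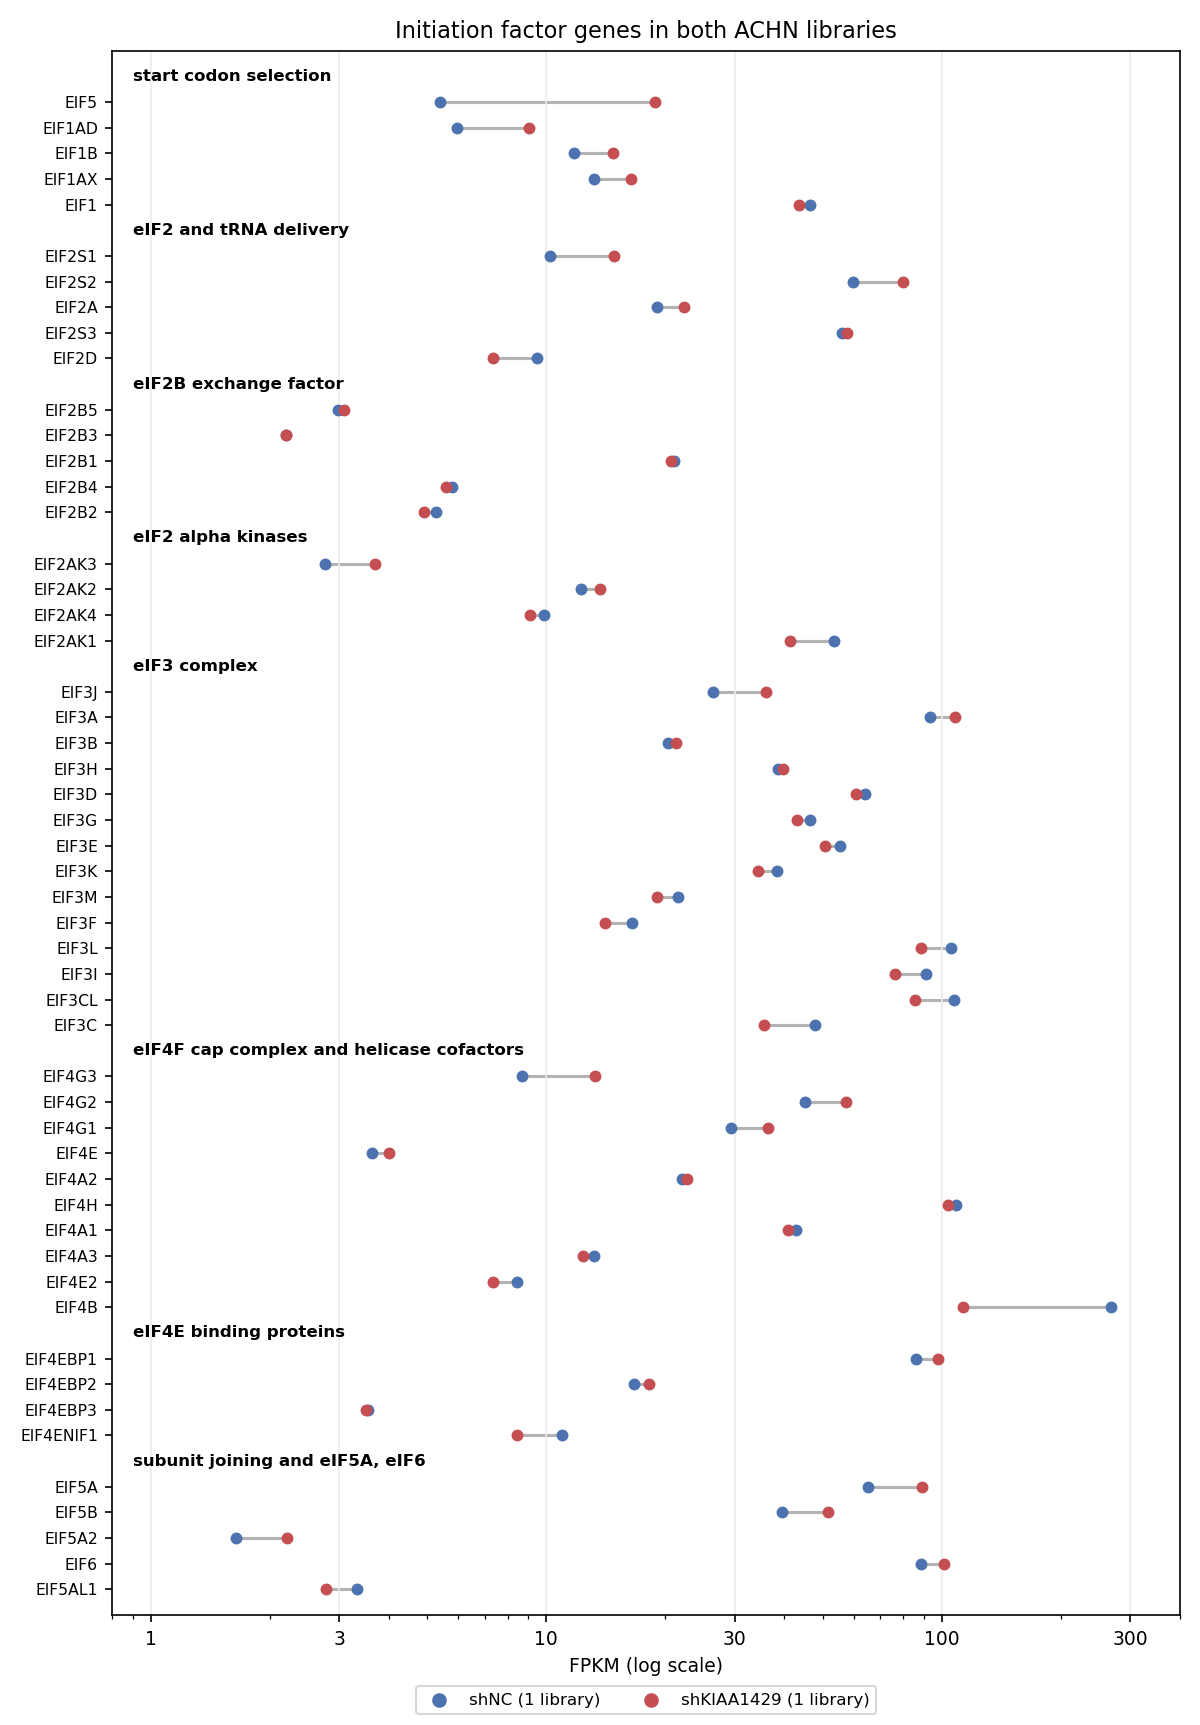
Level of each of the 52 initiation factor genes in the shNC library (blue) and the shKIAA1429 library (red), as FPKM on a log axis, grouped by role and ordered by change. EIF5 runs from 5.39 to 18.9 FPKM and EIF4B from 269 down to 113 FPKM, while most other pairs of points lie close together.

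Over the set as a whole, 26 of the 52 genes had a change above 0 and 26 below, beside 57.3% of all genes above 0. The median change of the set was 0.02, and 22 genes lay above the median of all genes against 30 below. Summed over the set, the FPKM were 1992 in shNC and 1889 in shKIAA1429. Without EIF4B the sums were 1724 in shNC and 1776 in shKIAA1429, so the lower total rests on that gene. Levels spanned a wide range in both libraries. In shNC, EIF5A2 was lowest at 1.64 FPKM and EIF4B highest at 269 FPKM. In shKIAA1429, EIF2B3 was lowest at 2.19 FPKM and EIF4B was still highest, now followed closely by EIF3A at 108 FPKM.

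**Figure D2:**
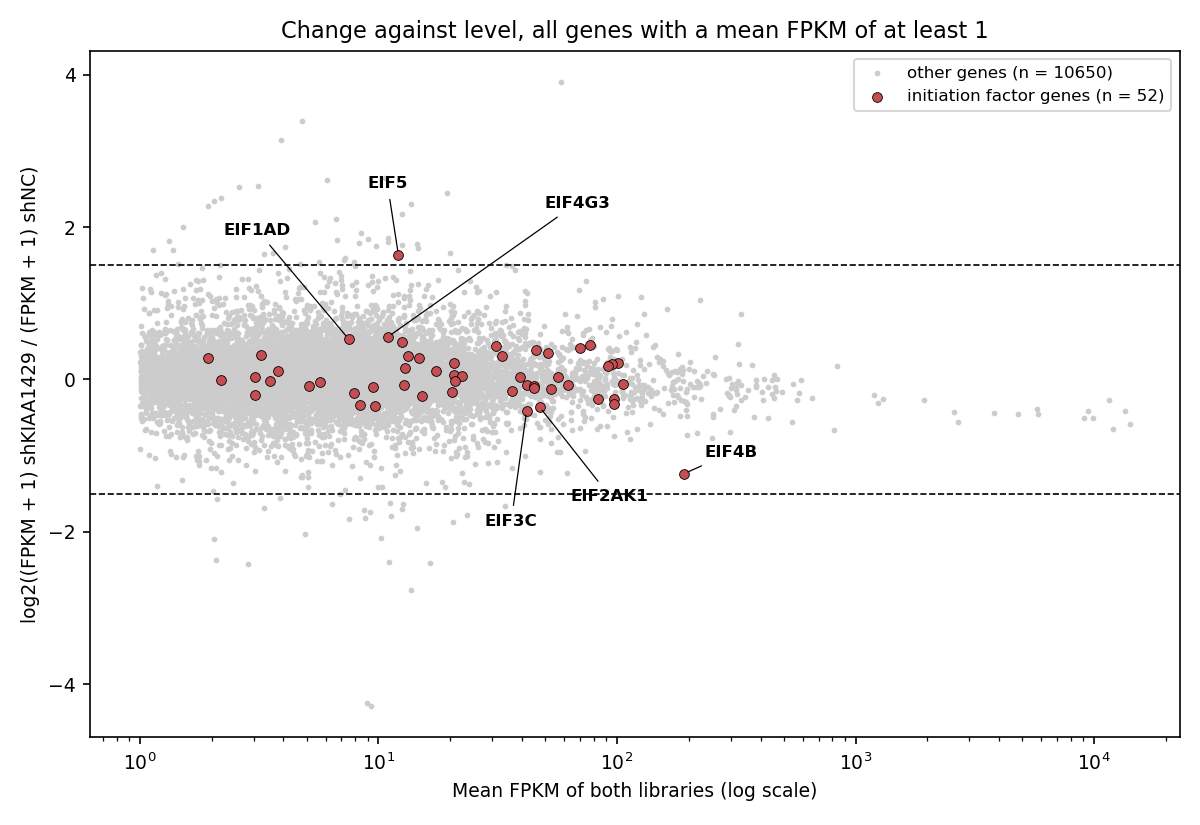
Change of each gene (y axis, log2) against its mean FPKM in both libraries (x axis, log scale), for the 52 initiation factor genes (red) and the other 10650 genes (grey), with dashed lines at 1.5 and −1.5. EIF5 lies above the upper line at a mean of 12.1 FPKM, and EIF4B lies below all genes of similar or higher level at a mean of 191 FPKM.

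Sequence at the transcript start is shown first because the mRNAs of much of the translation machinery open with a cytosine followed by a run of pyrimidines, the terminal oligopyrimidine motif through which mTOR and LARP1 control them. The starts of 43 of the 52 genes could be matched to RefSeq promoters (GRCh38.p14). Of the lists described below, 8 of 11 elongation genes and 2 of 4 poly(A) binding protein genes could be matched. EEF1A2 and PABPC1 could not, so their starts were not searched. Each window below holds 10 bases before the annotated first base and 12 from it onward, 5′ to 3′, with the run of C or T from that base in capitals. The search asked for a C followed by at least 4 more C or T on the transcribed strand, and it was chosen after the levels were known. EIF4B and the 3 listed elongation factors with such a run are given first, the run of EEF1B2 going on past its window to 16 bases, then the other initiation factors with one, then the 2 annotated starts of EIF5, which have none.
EIF4B, chr12:53006446-53006467, + strand: tcatccgggtCTTTTgcgttct
EEF1A1, chr6:73521021-73521042, − strand: cgtgaacgttCTTTTTCgcaac
EEF2, chr19:3985452-3985473, − strand: cgtcagcgttCTCTTCCgccgt
EEF1B2, chr2:206159885-206159906, + strand: ctcttcgggtCCTTTTTCCTCT
EIF2D, chr1:206612454-206612475, − strand: ccagccgggcCCTTTTCgcggc
EIF3F, chr11:7987327-7987348, + strand: cttccgcctcCTTCTTTCTCga
EIF3M, chr11:32583821-32583842, + strand: gcccagttccCTTTTCCggtcg
EIF3K, chr19:38619178-38619199, + strand: tttccaccacCTCTTCCTgttc
EIF3D, chr22:36529155-36529176, − strand: cgcatgtttcCTCTTTTCCTgg
EIF2S3, chrX:24054946-24054967, + strand: gatttccttcCTCTTTTggcaa
EIF4A2, chr3:186783567-186783588, + strand: gcgccgctgtCTTTTCagtcgg
EIF2A, chr3:150546777-150546798, + strand: cgagcggtttCTCTTTCCggga
EIF5, first start, chr14:103334227-103334248, + strand: ggcgttgttcagtcagagcgag
EIF5, second start, chr14:103334878-103334899, + strand: ggcacccctcggccgtgtgtcg

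A pyrimidine run opened 9 of the 43 matched initiation factor genes (20.9%) and 656 of all 8457 matched genes (7.76%). Without ribosomal protein genes, of which 47 of 67 had the run, the share of all genes was 7.26%. Of the 9 initiation factor genes with a run, 8 had a change below the median of all genes, and their median change was −0.15. Of the 34 without one, 16 lay below that median, and their median change was 0.09. Leaving out EIF4B, 7 of 8 with a run lay below it, with a median of −0.11. Of the 9, 3 had a change above 0, and EIF2S3 and EIF4A2, each at 0.04, lay only just below the median of all genes. EIF3F, EIF3M, EIF3K and EIF3D are subunits of eIF3, whose genes lay mostly below the median of all genes, so these results overlap. TRIB3, of the stress response list described below, also had a run, of 6 bases and not printed, with a change of 0.34. Over all matched genes, 63.9% of those with a run and 48.6% of those without lay below it, with medians of −0.05 and 0.07. Ribosomal protein genes were low in either case, with 44 of 47 below it with a run and 17 of 20 without, and medians of −0.17 and −0.15. The run was sought only at the annotated first base, so genes counted without it may have one starting nearby. These comparisons therefore cannot show what part the motif has, which was not tested. The run of EIF4B was the shortest printed, at 5 bases, while EEF1B2 with the longest had a change of −0.05, and EIF3F and EIF3D had runs of 10 bases with changes of −0.21 and −0.07, so the length of the run did not order the changes.

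**Figure D3:**
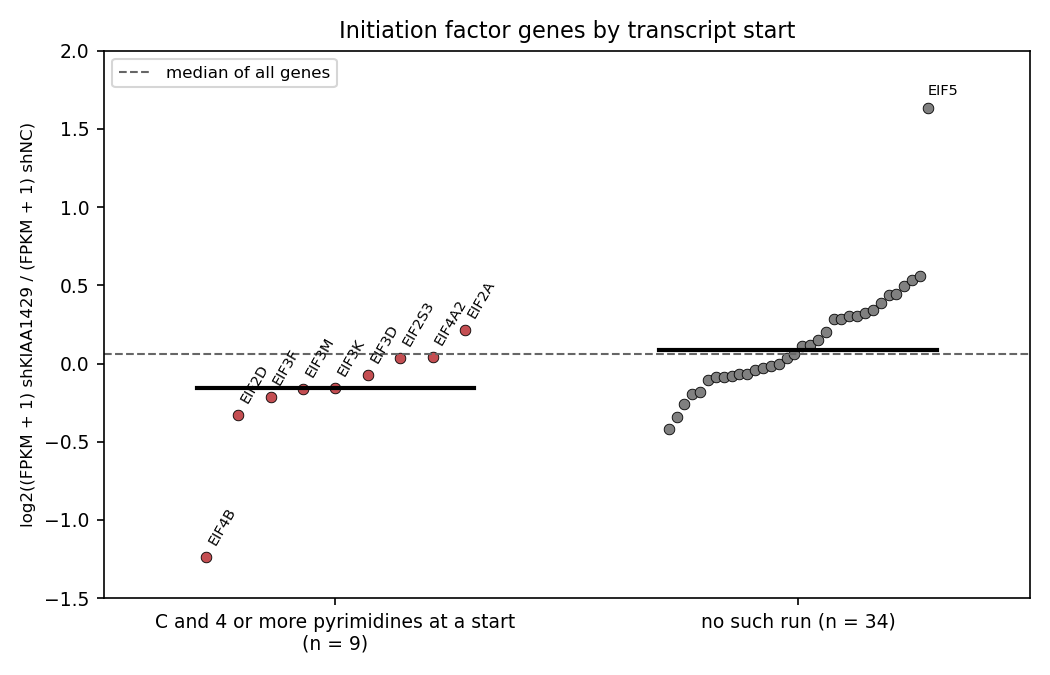
Change (y axis, log2) of the 43 initiation factor genes matched to a RefSeq start, each a point in order of its change, for the 9 with a pyrimidine run at a start (red, named) and the 34 without (grey). Black bars are the group medians, −0.15 and 0.09, the dashed line is the median of all genes, 0.06, and EIF4B and EIF5 are the extremes of the respective groups.

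Start codon selection held the highest change of the set. EIF5, the protein that makes eIF2 hydrolyse GTP at the start codon, was at 350% of its control FPKM and had the rank 34 from the top among 10702 genes. When all genes were split by mean level into 20 bins, its bin held 535 genes between 10.8 and 12.7 FPKM, EIF5 among them, and 4 of these had a higher change. EIF5 (ENSG00000100664.10_3) lies on chromosome 14 from 103799881 to 103811362 on the plus strand of GRCh37, and no other listed gene overlaps it on that strand. GENCODE 29 gives it 10 coding transcripts of 569 to 5945 bases, which a gene-level FPKM does not separate.

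The partners of eIF5 at this step had smaller changes. EIF1, which keeps the scanning ribosome open until a start codon is met, was at 46.3 FPKM in shNC and 43.6 FPKM in shKIAA1429, a change of −0.09. Its paralog EIF1B went from 11.8 to 14.8 FPKM, a change of 0.31. In shNC the level of EIF1 was 8.60 times that of EIF5, and in shKIAA1429 it was 2.31 times. EIF1AX, which encodes the eIF1A that occupies the A site during scanning, was at 13.2 and 16.3 FPKM, a change of 0.28. EIF1AD, grouped here only for the eIF1A-like domain in its name and not as a known partner of eIF5, was at 5.94 FPKM in shNC and 9.04 FPKM in shKIAA1429, a change of 0.53.

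BZW1 and BZW2 encode the eIF5 mimics, proteins with the eIF2-binding domain of eIF5 that compete with it. BZW1 was at 10.04 FPKM in shNC and 14.9 FPKM in shKIAA1429, a change of 0.53, while BZW2 was at 16.5 and 11.8 FPKM, a change of −0.45. EIF5 therefore held 16.9% of the summed FPKM of these 3 genes in shNC and 41.4% in shKIAA1429. The share of BZW2 was 51.7% in shNC and 25.9% in shKIAA1429, and that of BZW1 was 31.4% and 32.7%. The order by level was BZW2, BZW1, EIF5 in shNC and EIF5, BZW1, BZW2 in shKIAA1429. Shares within a library do not depend on its scaling. Against EIF2S1, the α subunit of the eIF2 on which it acts, EIF5 had a ratio of 0.53 in shNC and 1.27 in shKIAA1429.

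**Figure D4:**
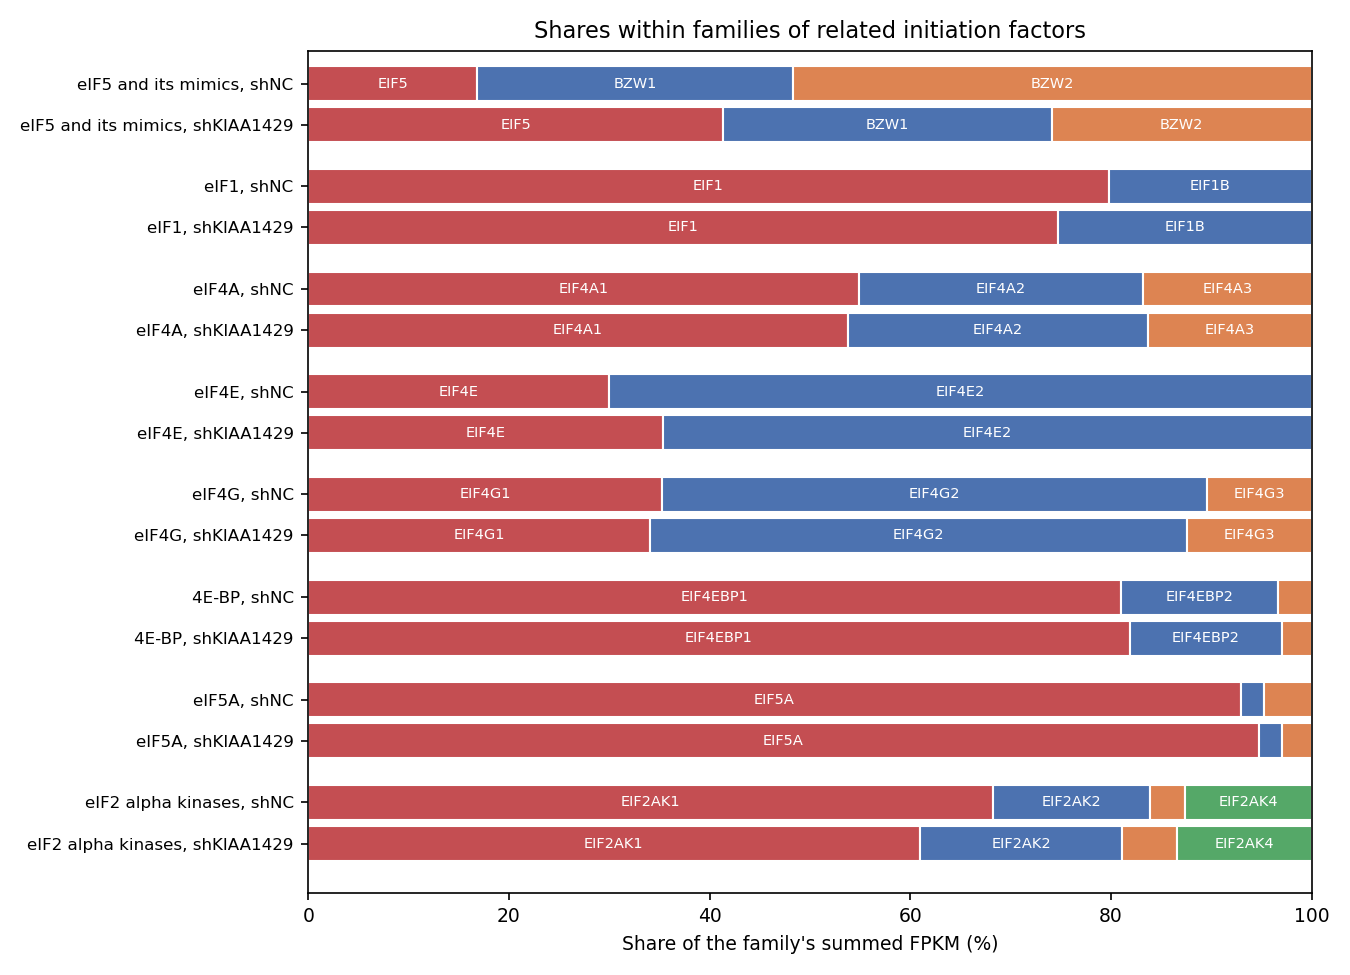
Share (%) of each gene in the summed FPKM of its family, with the shNC library above the shKIAA1429 library in each pair of bars. The unlabelled segments are EIF4EBP3, EIF5A2 followed by EIF5AL1, and EIF2AK3. The share of EIF5 among EIF5, BZW1 and BZW2 is 16.9% in shNC and 41.4% in shKIAA1429, while no share in the other families drawn differs by more than 8 percentage points.

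The bases around the start codon are shown because eIF1 and eIF5 act on that choice and their own mRNAs are known to respond to it. Each run below is from a principal GENCODE 29 transcript (GRCh38), with 10 bases before the start codon, the start codon in capitals and 7 bases after it. Positions are counted with the A of the start codon as 1.
EIF5, start codon in exon 3 of 12: ataagccaaaATGtctgtca
EIF1, start codon in exon 1 of 4: atcgtatcgtATGtccgcta
EIF1B, start codon in exon 1 of 4: ctagtatcgcATGtccacta
EIF4B, start codon in exon 1 of 15: ctctcccaacATGgcggcct
EIF1 and EIF1B had a C at position −3 and a T at position 4, and EIF5 an A and a T. EIF4B had the A at −3 and the G at 4 that favour recognition. Over all 10522 genes with a matched transcript, 86.5% had a purine at −3, 53.4% a G at 4 and 46.4% both. Among 51 matched initiation factor genes the shares were 88.2%, 49.0% and 43.1%. The leader of EIF5 was 676 bases long and held 6 upstream ATG triplets. Of all matched genes 7.43% held 6 or more, and of the 51 matched initiation factor genes 11.8% did, EIF4E with 15 and EIF2S1 with 8 among them. That cut was the count of EIF5 itself. Any upstream ATG was less common in the set, in 37.3% of the 51 genes against 53.5% of all matched genes. Leader length was not taken into account.

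The eIF2 group, which brings initiator tRNA to the ribosome, had 3 of 5 genes above the median of all genes. EIF2S1, the α subunit that the stress kinases phosphorylate, was at 10.2 FPKM in shNC and 14.9 FPKM in shKIAA1429, a change of 0.50. EIF2S2, the β subunit that eIF5 binds, was at 59.6 and 80.0 FPKM, a change of 0.42. EIF2S3, the γ subunit that holds GTP and the tRNA, was at 56.1 and 57.5 FPKM, a change of 0.04. The 3 subunits of one complex were thus listed at unequal levels, with EIF2S1 lowest in both libraries: EIF2S2 was 5.82 times EIF2S1 in shNC and 5.38 times in shKIAA1429. EIF2A and EIF2D encode carriers that can deliver tRNA without eIF2. EIF2A was at 19.0 FPKM in shNC and 22.3 FPKM in shKIAA1429, a change of 0.22, and EIF2D was at 9.46 and 7.32 FPKM, a change of −0.33.

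The 5 subunits of eIF2B, which exchanges GDP for GTP on eIF2, were nearly level between the libraries. Their changes ran from −0.09 for EIF2B2 to 0.03 for EIF2B5, the catalytic subunit, and all 5 lay below the median of all genes. EIF2B1 was the most abundant, at 21.1 FPKM in shNC and 20.7 FPKM in shKIAA1429. EIF2B3 was the least abundant, at 2.20 and 2.19 FPKM. EIF2B5 itself was at 2.98 and 3.08 FPKM.

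Among the 4 kinases of eIF2α, 2 were above the median of all genes and 2 below. EIF2AK1, the heme-regulated kinase HRI, was the most abundant, at 53.4 FPKM in shNC and 41.4 FPKM in shKIAA1429, a change of −0.36. EIF2AK2, the double-stranded RNA sensor PKR, was at 12.2 and 13.7 FPKM, a change of 0.15. EIF2AK3, the endoplasmic reticulum stress kinase PERK, was at 2.75 and 3.70 FPKM, a change of 0.32. EIF2AK4, the amino acid sensor GCN2, was at 9.88 and 9.11 FPKM, a change of −0.11. EIF2AK1 held 68.2% of their summed FPKM in shNC and 60.9% in shKIAA1429.

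Subunits of eIF3, the large complex that organises the small ribosomal subunit for initiation, lay mostly below the median of all genes. Of the 14 listed genes, 11 did so and 10 had a change below 0, with a median of −0.14. Rescaling both libraries to an equal sum made this median 0.04. The count of 11 stayed, but a common factor for each library can hardly alter it, so it is no further check. None had a change of more than 0.5 in either direction. The bins of mean level that hold most of these genes had median changes of −0.06, 0.02 and 0.01, below that of all genes. What part level has in the eIF3 values was not tested. EIF3A, the scaffold subunit, was at 93.2 FPKM in shNC and 108 FPKM in shKIAA1429, a change of 0.21. EIF3J, the loosely bound subunit, was at 26.4 and 36.1 FPKM, a change of 0.44, the highest of the group. EIF3B, the other core scaffold, was at 20.4 and 21.3 FPKM, a change of 0.06, and EIF3H had a change of 0.04.

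The lowest changes of the group were those of the genes for eIF3c. EIF3C was at 47.9 FPKM in shNC and 35.6 FPKM in shKIAA1429, a change of −0.42, and EIF3CL was at 108 and 85.8 FPKM, a change of −0.32. The 2 genes lie on chromosome 16, and their principal coding sequences were 100% identical over the 2739 aligned bases, so the split of reads between them is uncertain. Their sum was 156 FPKM in shNC and 121 FPKM in shKIAA1429, a change of −0.35. EIF3I and EIF3L, WD-repeat and PCI-domain subunits, both had a change of −0.26, with 91.1 and 76.0 FPKM for EIF3I and 106 and 88.5 FPKM for EIF3L. The 6 other subunits, EIF3F, EIF3M, EIF3K, EIF3E, EIF3G and EIF3D, had changes between −0.21 and −0.07.

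EIF4B, which stimulates the eIF4A helicase and is a target of S6 kinase, held the lowest change of the set. Its level in shKIAA1429 was 42.2% of that in shNC, and its rank among 10702 genes was 47 from the bottom. Of the 219 genes with a mean of at least 100 FPKM it was the only one lower by more than 1. The median change of those 219 genes was −0.11, below that of all genes, and what part level has in the value of EIF4B was not tested. EIF4B (ENSG00000063046.17_3) lies on chromosome 12 from 53399942 to 53435993 on the plus strand of GRCh37, and GENCODE 29 gives it 6 coding transcripts of 537 to 4148 bases. EIF4H, which shares the RNA-recognition motif and the action of eIF4B on eIF4A, was at 109 FPKM in shNC and 104 FPKM in shKIAA1429, a change of −0.07. EIF4B was 2.47 times EIF4H in shNC and 1.09 times in shKIAA1429.

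The helicase genes themselves were nearly level. EIF4A1, the main helicase of eIF4F, was at 42.9 FPKM in shNC and 40.9 FPKM in shKIAA1429, a change of −0.07. The read-through gene SENP3-EIF4A1 overlaps it and was at 7.11 and 10.6 FPKM, and the sum of both was 50.0 and 51.5 FPKM, a change of 0.04. EIF4A2, its paralog, was at 22.1 and 22.8 FPKM, and EIF4A3, the helicase of the exon junction complex, was at 13.2 and 12.4 FPKM. EIF4B was 6.26 times EIF4A1 in shNC and 2.77 times in shKIAA1429.

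The 3 genes for eIF4G, the scaffold between the cap and the ribosome, were all above the median of all genes. EIF4G1 was at 29.3 FPKM in shNC and 36.5 FPKM in shKIAA1429, a change of 0.31. EIF4G2, a form that lacks the eIF4E binding site, was at 45.1 and 57.4 FPKM, a change of 0.34. EIF4G3 was at 8.68 and 13.3 FPKM, a change of 0.56, the highest after that of EIF5 in the whole set. Their sum had a change of 0.36, with shares within the family of 54.3% in shNC and 53.6% in shKIAA1429 for EIF4G2.

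EIF4E, the cap-binding protein, was at 3.62 FPKM in shNC and 4.004 FPKM in shKIAA1429, a change of 0.12, among the lowest levels of the set. EIF4E2, a cap-binding relative that does not bring in eIF4G, was at 8.44 and 7.33 FPKM, a change of −0.18. EIF4EBP1, the best-known inhibitor of eIF4E, was at 86.2 and 97.8 FPKM, a change of 0.18. It was 23.8 times EIF4E in shNC and 24.4 times in shKIAA1429, so this ratio stayed nearly level. EIF4EBP2 was at 16.7 and 18.2 FPKM and EIF4EBP3, overlapped by a read-through gene with ANKHD1, at 3.55 and 3.50 FPKM. EIF4ENIF1, which carries eIF4E into the nucleus, was at 10.97 FPKM in shNC and 8.44 FPKM in shKIAA1429, a change of −0.34.

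Of the 5 genes for subunit joining and the later factors, 4 were above the median of all genes. EIF5B, the GTPase that joins the subunits, was at 39.4 FPKM in shNC and 51.7 FPKM in shKIAA1429, a change of 0.38. EIF5A, the hypusine-bearing factor that helps the ribosome form difficult peptide bonds, was at 65.2 and 89.2 FPKM, a change of 0.45. Its paralog EIF5A2 was at 1.64 and 2.21 FPKM, a change of 0.28. EIF5AL1, an intronless copy on chromosome 10, was at 3.32 and 2.77 FPKM, a change of −0.20, and its coding sequence was 98.9% identical to that of EIF5A, so reads may be split between them. EIF6, which keeps the large subunit from joining early, was at 88.4 and 102 FPKM, a change of 0.20.

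Genes around initiation were described by lists chosen for function, with earlier results of these data known. Among 20 other initiation proteins the median change was 0.05, close to that of all genes, with 3 higher by more than 0.5, near the 9.9% of all genes, and 0 lower, beside 6.12%. DDX3X, an RNA helicase that aids scanning of structured leaders, was at 11.3 FPKM in shNC and 32.1 FPKM in shKIAA1429, a change of 1.43. DHX9, another RNA helicase, was at 32.4 and 50.2 FPKM, a change of 0.62, and BZW1 was the third. In the list of 14 mTOR and MNK pathway genes the median was 0.04, and only RPS6KA3, a ribosomal S6 kinase, was past 0.5 (beside 9.9% of all genes higher), at 5.01 and 7.71 FPKM. The next were MKNK2, a kinase of eIF4E, with a change of 0.40, and TSC1, with 0.27.

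Genes of the elongation list were mostly lower. The list also holds DHPS, EEF2K, EEF1AKMT1 and EEF1E1, which are not elongation factors themselves. Of its 11 genes, 10 lay below the median of all genes, and the list's median was −0.38. EEF1B2 and EEF1G, subunits of eEF1, had changes of −0.05 and −0.06. EEF1A2, a form of the factor that brings aminoacyl-tRNA to the ribosome, was at 97.4 FPKM in shNC and 50.1 FPKM in shKIAA1429, a change of −0.95. EEF1A1, the common form, was at 992 and 625 FPKM, a change of −0.67, and EEF2, the translocase, was at 646 and 438 FPKM, a change of −0.56. Those 3 of 11 were the ones lower by more than 0.5, beside 6.12% of all genes. Genes with a mean of at least 100 FPKM had a median change of −0.11, and what part level has in the values of this paragraph was not tested. The 4 poly(A) binding protein genes had a median of −0.30, led by PABPC1, the cytoplasmic protein that links the poly(A) tail to eIF4G, at 268 and 164 FPKM, a change of −0.70. PABPC4 had a change of −0.34 and PABPC1L of 0.28, and PABPC3 was under the minimum of 1 FPKM. The 7 termination and recycling genes had a median of 0.06, with GSPT1 at 0.25, HBS1L at 0.25 and N6AMT1 at 0.14.

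**Figure D5:**
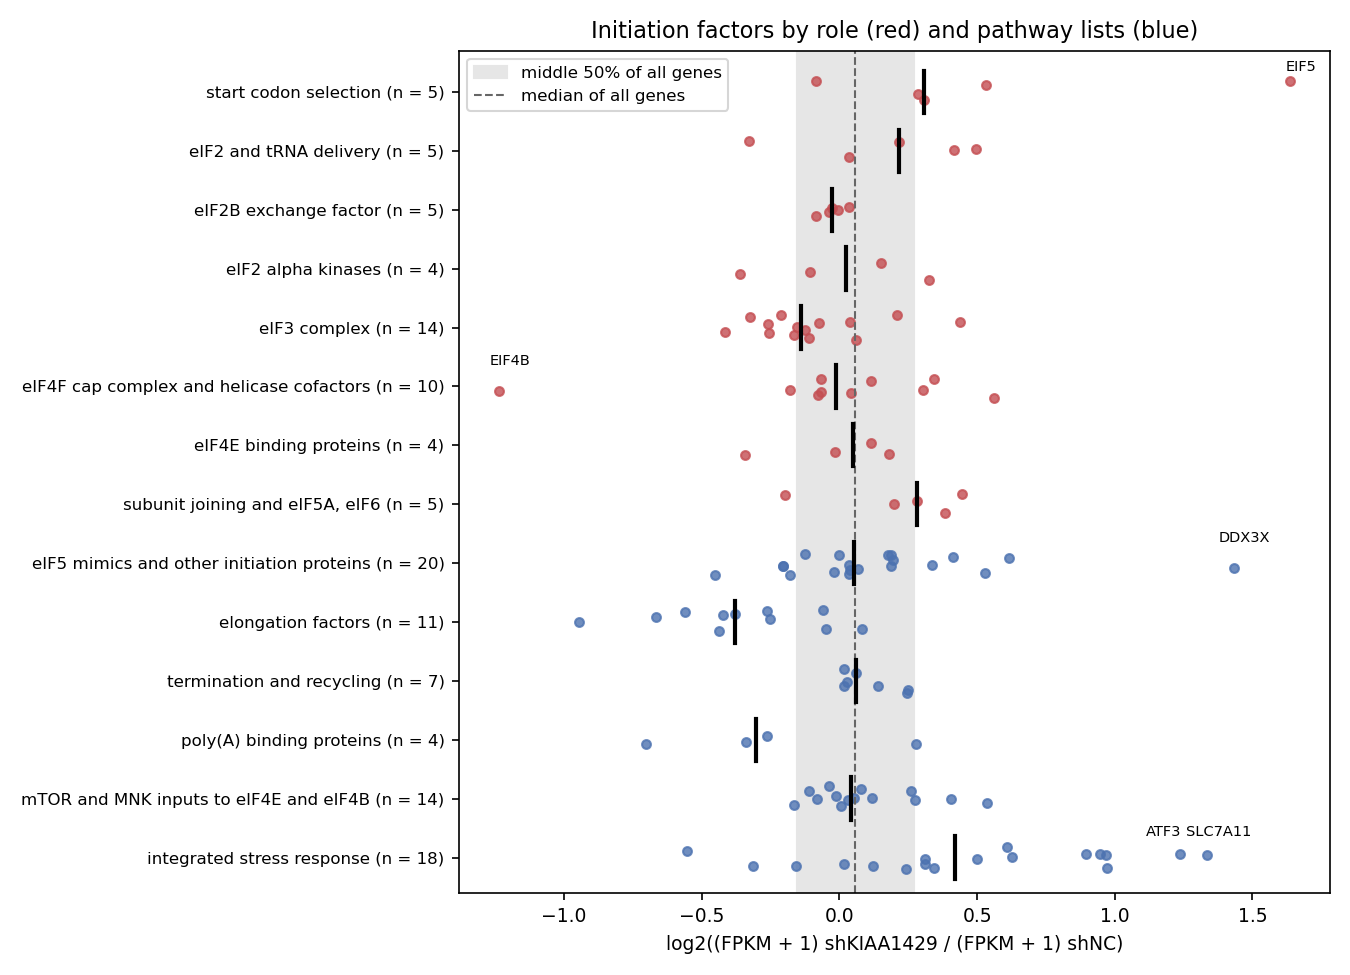
Change (x axis, log2) of each gene in the 8 role groups of initiation factors (red) and the 6 pathway lists (blue), with black bars for group medians, a dashed line for the median of all genes and a grey band for their middle 50%. Genes past 1 in either direction are named. The band runs from −0.15 to 0.27, and 5 medians lie outside it: elongation (−0.38) and poly(A) binding proteins (−0.30) below, and start codon selection (0.31), subunit joining (0.28) and the integrated stress response (0.42) above. The subunit joining median is the value of EIF5A2, just past the edge of the band.

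The integrated stress response is the program that follows phosphorylation of eIF2α, and its 18 listed genes had a median change of 0.42. Of the 18, 14 lay above the median of all genes, 8 were higher by more than 0.5 (beside 9.9% of all genes), and 1 was lower by more than 0.5 (beside 6.12%). SLC7A11, a cystine transporter, was at 1.92 FPKM in shNC and 6.38 FPKM in shKIAA1429, a change of 1.34. ATF3, a stress-induced transcription factor, was at 4.98 and 13.1 FPKM, a change of 1.24, and PPP1R15A, the GADD34 subunit that directs dephosphorylation of eIF2α, was at 22.9 and 45.8 FPKM, a change of 0.97. ATF4, the transcription factor at the head of the program, whose own control is largely at translation, was at 181 and 146 FPKM, a change of −0.31. PHGDH, an enzyme of serine synthesis, was at 16.1 and 10.6 FPKM, a change of −0.55. Phosphorylation and translation were not measured in these libraries.

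The GGACT motif, a form of the sequence in which N6-methyladenosine is placed, was counted in the 3′ untranslated regions, a search also chosen after the levels were known. It was present in 31 of 51 matched initiation factor genes (60.8%) and in 58.5% of all matched genes. EIF5 had 1 such motif in this region and EIF4B had 2. Methylation itself was not measured here.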

How the data were processed

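Poly(A) RNA from the shKIAA1429 and shNC lines of ACHN cells was sequenced as paired-end, strand-marked libraries, 1 per group. The authors deposited 1 table per library with FPKM values for protein-coding genes. The submitters' processing notes name cutadapt 1.9, HISAT2 2.0.4, StringTie 1.3.4d, DESeq2 and edgeR, and the genome build is not given in the sources used here. Gene positions in the tables match GENCODE on GRCh37. Each listed gene exceeds 0.5 FPKM in at least 1 library. Whether counting used strand is not stated.

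Here, 12014 entries were reduced to 12007 symbols by keeping the entry with the higher mean, and 1 FPKM was added before taking log2. Without replicates no test was run. Genes named are EIF5 and its partners, the 10 members with the highest and the 10 with the lowest changes, paralog families, the most abundant and most changed member of each role, and the 3 largest changes of each list. MTOR pathway, stress response and other lists, like the members themselves, were chosen with earlier results of these data known. GC content, lengths, start codons and coding sequences came from GENCODE 29, with values for 52 members and 99.5% of genes, and transcript starts from RefSeq (GRCh38.p14). Python 3.11.15, NumPy 2.4.6, pandas 2.3.3, Biopython 1.88 and matplotlib 3.10.9 were used, and the calculation was tested on simulated data. Alternatives covered the pseudocount, scaling, filter, duplicate symbols, overlapping genes, the limit, and a trend in GC content and length.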

Additional observations from a re-analysis of the deposited data

How the results depend on the processing

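With 1 library per group, the size of a difference between repeated cultures is unknown, as is the depth behind each FPKM. No paired analysis was possible because each line gave a single library. A common sum of 1000000 for both libraries moved the median of all genes from 0.06 to 0.24, so 41 of the 52 genes then lay above 0. The count above the median of all genes stayed at 22, which a common factor for each library can hardly alter. The same rescaling without mitochondrial genes left 26 above 0, with medians of 0.07 for all genes and 0.02 for the 52. The common sum over all genes, mitochondrial ones included, gave medians of 0.18 for the 52 genes and 0.040 for eIF3. It also gave −0.22 for the elongation list, 0.62 for the stress response list and a log2 change of EIF4B of −1.06. All 50 members other than EIF5 and EIF4B moved up under that common sum by 0.12 to 0.26, and 15 of them changed sign. Removing the trend in GC content and length took EIF5 to 1.49, so 0 genes were higher by more than 1.5, took the elongation median to −0.27, and changed the sign of 12 members. It also took the subunit joining median from 0.28 to 0.15. With a limit of 1, 1 gene was lower. Centring changed the sign of 4 members. The count above the median of all genes, a measure added after the data were seen, ran from 19 of the 45 genes with a mean of at least 5 FPKM to 22.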

Other observations

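The other copies and neighbours of initiation factor genes had values of their own. SENP3-EIF4A1, a read-through gene that runs into EIF4A1, was at 7.11 FPKM in shNC and 10.6 FPKM in shKIAA1429, a change of 0.52, while its upstream neighbour SENP3 was at 16.8 and 17.2 FPKM. ANKHD1-EIF4EBP3 was at 5.26 and 5.83 FPKM, a change of 0.12, and ANKHD1 at 1.53 and 2.19 FPKM. How fragments were shared between a read-through gene and the genes inside it cannot be read from FPKM.

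The motif CACGTG, the E-box to which MYC and its partners bind, was searched in the 300 bases around each RefSeq start after the levels were known. It was present at a start of 12 of the 43 matched initiation factor genes (27.9%), EIF4B among them, and of 13.3% of all 8457 matched genes. The median change was −0.01 for the 12 genes with the motif and 0.04 for the other 31. EIF4B had both this motif and the pyrimidine run. MYC itself was at 28.5 FPKM in shNC and 4.53 FPKM in shKIAA1429. A match of letters does not show binding.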
